A study of Homo sapiens with 15 samples.

Results

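Claudins are the membrane proteins that form the strands of tight junctions, the seals between neighbouring epithelial cells. The 10 genes described here are 6 claudins (CLDN1, CLDN3, CLDN4, CLDN7, CLDN12 and CLDN22) and 4 proteins that sit with them in the junction (OCLN, MARVELD2, TJP3 and CGN). They were taken by symbol from a table of 16604 genes measured in cultured ovarian cancer cells, and all 10 listed genes were found in it. The rule lists symbols and uses no measured value, but the symbols were chosen with earlier results of these data known.

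RNA was sequenced from 5 lines of OVCAR4, an established cell line of high-grade serous ovarian cancer, with 3 biological replicates per line and 15 samples in all. Ovcar4Parental is labelled sensitive to both platinum drugs, cisplatin and carboplatin, which crosslink DNA. Ov4Cis is labelled cisplatin resistant and Ov4Carbo carboplatin resistant, and both were made by growing cells in stepwise higher drug. Ov4Carbo4 and Ov4Carbo7, also carboplatin resistant, each grew from a single cell of Ov4Carbo, so each stands for 1 clone. All lines were kept in DMEM with serum, and whether drug was present when RNA was taken is not given in the sources used here. Values are log2 RPKM, the log2 of a gene's reads divided by its length and by the size of the library, so a level can be compared between genes of different length. A difference of 1 is a doubling. Read totals are unknown, so the spread between replicates is the measure of precision, and p-values measure only that spread. The lowest value in a sample lay between -8.18 and -7.68, and sizes of changes that end near there are uncertain.

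The claudins of an epithelial cell set which ions and solutes pass between cells. CLDN1, CLDN3, CLDN4 and CLDN7 tighten the barrier, and CLDN3, CLDN4 and CLDN7 are known to be abundant in epithelial ovarian cancer. Occludin (OCLN) and tricellulin (MARVELD2) are membrane proteins of the MARVEL family, the latter at the corners where cells meet. On the inner side, zonula occludens protein TJP3 (ZO-3) and cingulin (CGN) form the plaque that ties the strands to actin and myosin.

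Promoters were set beside the levels because members moved together in some lines. The RefSeq table (GRCh38.p14) holds 13 promoters for the 10 genes, each from 250 bases before to 50 bases after a start site. Matches were sought for CACCTG, a site type bound by the ZEB and Snail repressors, and for AACNNGTT, a site type bound by grainyhead-like factors, on both strands. The 5 shown are a selection. They are CLDN7 and CGN, lower than in the parental line in all 4 derived lines, CLDN4, with the largest change in Ov4Cis, and CLDN3 and OCLN, 2 of the 4 genes called in 2 lines. They are given 5′ to 3′ on the gene's strand, with matches in capitals (CAGGTG is CACCTG read on the other strand). The CLDN7 promoter lies at chr17:7262429-7262728 (minus strand, the first of its 2 start sites), that of CLDN3 at chr7:73770221-73770520 (minus), that of CLDN4 at chr7:73830746-73831045 (plus), that of OCLN at chr5:69492540-69492839 (plus, the second of its start sites) and that of CGN at chr1:151511137-151511436 (plus).
CLDN7: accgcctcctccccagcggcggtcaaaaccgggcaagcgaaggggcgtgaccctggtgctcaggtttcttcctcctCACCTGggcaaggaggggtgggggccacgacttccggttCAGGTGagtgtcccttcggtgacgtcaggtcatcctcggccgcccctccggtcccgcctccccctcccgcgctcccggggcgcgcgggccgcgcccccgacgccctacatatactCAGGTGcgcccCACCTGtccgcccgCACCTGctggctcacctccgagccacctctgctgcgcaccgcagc
CLDN3: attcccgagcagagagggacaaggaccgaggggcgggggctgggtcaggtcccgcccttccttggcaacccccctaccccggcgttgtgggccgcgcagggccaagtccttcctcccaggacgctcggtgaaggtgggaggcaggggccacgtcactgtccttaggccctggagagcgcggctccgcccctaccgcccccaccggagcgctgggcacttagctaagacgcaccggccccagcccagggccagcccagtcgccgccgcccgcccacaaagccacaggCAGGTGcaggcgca
CLDN4: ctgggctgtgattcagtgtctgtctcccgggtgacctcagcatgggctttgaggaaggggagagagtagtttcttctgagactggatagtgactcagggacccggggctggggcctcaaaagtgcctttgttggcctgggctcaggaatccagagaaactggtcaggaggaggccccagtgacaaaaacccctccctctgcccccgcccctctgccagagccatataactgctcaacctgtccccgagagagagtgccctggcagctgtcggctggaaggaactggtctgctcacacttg
OCLN: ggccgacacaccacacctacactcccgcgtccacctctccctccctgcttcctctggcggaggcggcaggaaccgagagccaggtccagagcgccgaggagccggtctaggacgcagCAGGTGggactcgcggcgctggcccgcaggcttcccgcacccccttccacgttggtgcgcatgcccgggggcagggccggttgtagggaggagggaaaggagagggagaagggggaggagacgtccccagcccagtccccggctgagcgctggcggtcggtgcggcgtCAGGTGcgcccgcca
CGN: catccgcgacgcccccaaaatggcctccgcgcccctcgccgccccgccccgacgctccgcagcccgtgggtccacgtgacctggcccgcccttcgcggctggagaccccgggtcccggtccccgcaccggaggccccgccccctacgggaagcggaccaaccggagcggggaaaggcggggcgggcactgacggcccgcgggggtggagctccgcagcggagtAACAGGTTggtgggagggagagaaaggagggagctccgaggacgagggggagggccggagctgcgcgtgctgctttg
This CLDN7 promoter holds 5 matches to CACCTG, the first bases of which lie at -174, -135, -20, -9 and 6 counted from the start site. At least 1 match occurs in 20.6% of all 35114 promoters listed, and 0.094% hold 5 or more. Among the 10 genes 4 have a match (CLDN3, CLDN7, OCLN and TJP3), in 5 of their 13 promoters. AACNNGTT occurs in the CGN promoter alone among the 13, starting at -27, and in 3.5% of all promoters. The CLDN4 window holds neither. Nor do the windows of CLDN1 and CLDN22, called lower in 3 lines, and of MARVELD2, called lower in 2, which are not shown. The OCLN start site shown has 2 matches to CACCTG and the other has 1. The 5 promoters shown thus do not stand for all 13. A match is a string of letters and not a measured binding site.

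Each derived line was compared with the parental line by limma, and a gene was called when its adjusted p was under 0.05 and its log2 fold change at least 1 in size. How many of the 10 genes were called lower differed between the lines. In Ov4Cis 9 of the 10 were called lower and 0 higher. Of all 16604 genes 7.41% were called lower there and 8.46% higher. In Ov4Carbo7 7 of 10 were lower and 0 higher, against 7.75% and 9.26% of all genes. In Ov4Carbo 4 of 10 were lower and 0 higher, against 6.93% and 5.76% of all genes, and in Ov4Carbo4 3 of 10 were lower and 0 higher, against 7.7% and 7.43%. The 4 counts share the parental samples. Because the 10 genes were chosen with earlier results of these data known, the shares of all genes are set beside them as a description and not as a test.

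The changes were also larger in Ov4Cis and Ov4Carbo7 than in the other derived lines. The median log2 fold change of the 10 genes was -2.48 in Ov4Cis, where the median of all genes was 0.04. It was -1.66 in Ov4Carbo7 (all genes 0.02), -0.66 in Ov4Carbo4 (0.07) and -0.62 in Ov4Carbo (0.03). All 3 samples lay beneath the lowest parental sample for 9 genes in Ov4Cis, 8 in Ov4Carbo7, 6 in Ov4Carbo4 and 5 in Ov4Carbo. Of all genes 23.9%, 27%, 25.6% and 18.4% did so in the same lines. CLDN7 and CGN were called lower in all 4 lines, CLDN1 and CLDN22 in 3, CLDN3, CLDN4, OCLN and MARVELD2 in 2, TJP3 in 1 and CLDN12 in 0. In bulk RNA, fewer cells that express a gene and less RNA per cell cannot be told apart.

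**Figure D1:**
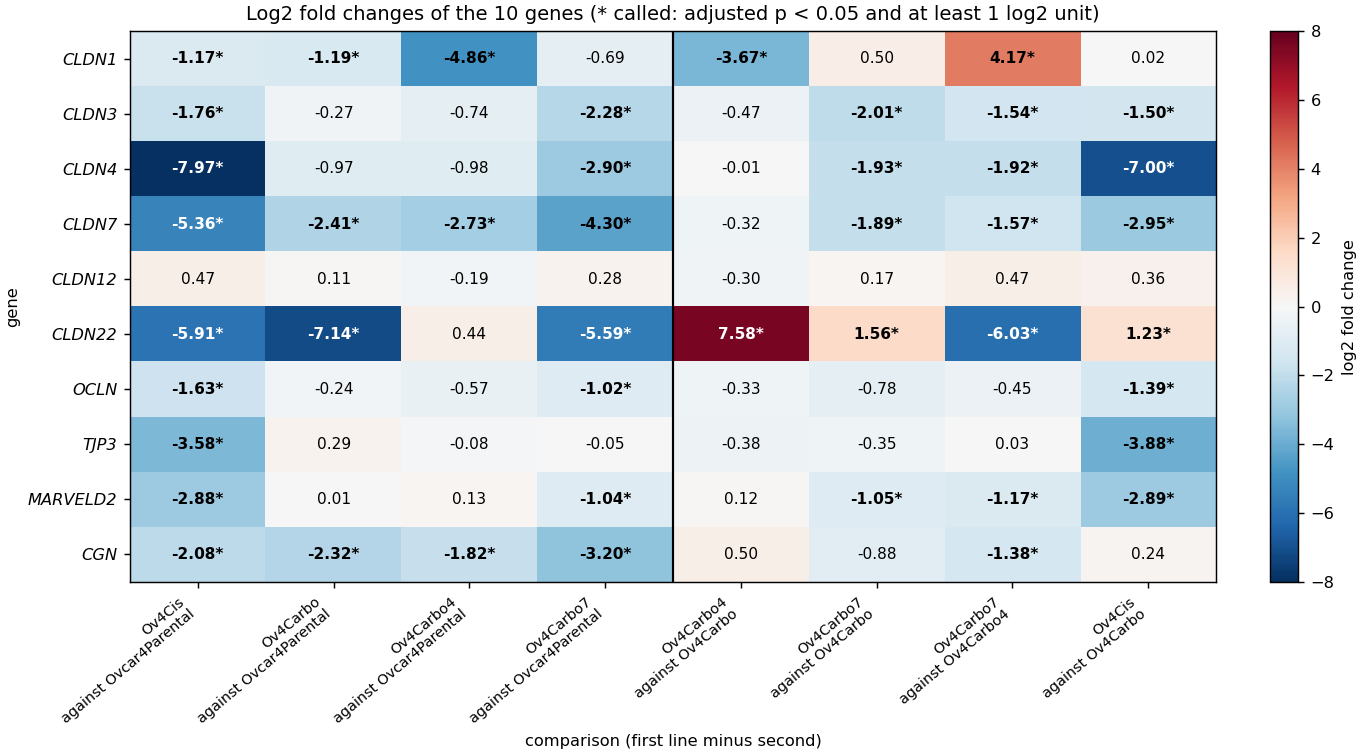
Log2 fold change of each of the 10 genes (rows) in 8 comparisons between lines (columns, first line minus second), with blue for lower and red for higher in the first line. Bold values with an asterisk were called at a limma adjusted p under 0.05 and a log2 fold change of at least 1. CLDN4 in Ov4Cis (-7.97) and CLDN22 in Ov4Carbo (-7.14) are the lowest values against the parental line, and the CLDN12 row has no asterisk.

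CLDN4 (ENSG00000189143, chromosome 7) encodes a barrier-forming claudin that is also a receptor for a Clostridium enterotoxin. It stood at 5.55, 5.02 and 5.16 log2 RPKM in the parental samples and at -2.47, -2.28 and -3.43 in Ov4Cis. The 2 sets are far apart and the gene went from among the higher of the 10 to the bottom of them save CLDN22. The log2 fold change was -7.97 (SE 0.28, adjusted p = 1.07e-09), or 251-fold lower, and -5.07 on the log2(RPKM + 1) scale, which damps low values. Ov4Carbo7, at 2.14, 2.70 and 2.18, was lower than the parental line by 2.90 (SE 0.28, adjusted p = 6.94e-06). Ov4Carbo stood at 4.14, 4.12 and 4.56 and Ov4Carbo4 at 4.06, 4.61 and 4.11, all below the lowest parental sample. Their changes of -0.97 (adjusted p = 0.0204) and -0.98 (adjusted p = 0.0160) were just under the size asked of a call. Leaving out parental replicate 2 or 3 took both past it, at -1.08 and -1.01 in Ov4Carbo and -1.09 and -1.02 in Ov4Carbo4, as did leaving out Ov4Carbo replicate 3 (-1.11) and Ov4Carbo4 replicate 2 (-1.15).

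CLDN7 (ENSG00000181885, chromosome 17), a claudin of lateral membranes whose promoter carries the 5 CACCTG matches, was lower in every derived line. Its parental values were 5.70, 5.21 and 4.93 log2 RPKM. Ov4Cis stood at 0.38, -0.23 and -0.37 and Ov4Carbo7 at 1.12, 1.2 and 0.63, with no overlap with the parental samples. The log2 fold changes were -5.36 in Ov4Cis (SE 0.42, adjusted p = 8.48e-07) and -4.30 in Ov4Carbo7 (SE 0.42, adjusted p = 6.70e-06), or 41.0-fold and 19.7-fold lower. Ov4Carbo4, at 2.38, 3.06 and 2.22, was lower by 2.73 (SE 0.42, adjusted p = 0.000270). Ov4Carbo was the uneven line for this gene, with 1.81 in replicate 1, 3.03 in replicate 2 and 3.77 in replicate 3. Its change was -2.41 (SE 0.42, adjusted p = 0.000987), and -1.88 (adjusted p = 0.00135) without replicate 1.

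Replicate 1 of Ov4Carbo also differs from the other Ov4Carbo samples in the number series of its sample title, which it shares with all samples of Ov4Carbo4 and Ov4Carbo7. The labels do not call that series a batch. Ov4Cis and the parental line lie in the other series, so their comparison is within 1 series, as is that of the clones with each other. For the clones against the parental line, series and line can be told apart only through that 1 replicate. With a term for the title series, CLDN7 in Ov4Carbo4 was -1.13 (adjusted p = 0.145) and no longer called, while in Ov4Carbo7 it was -2.70 (adjusted p = 0.00506) and still called.

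CLDN3 (ENSG00000165215, chromosome 7), the nearest relative of CLDN4 and its neighbour on the chromosome, was called lower in Ov4Cis and Ov4Carbo7. Parental samples held 4.54, 3.78 and 3.99 log2 RPKM, Ov4Cis 2.55, 2.40 and 2.07, and Ov4Carbo7 1.70, 2.14 and 1.64. Neither derived line overlapped the parental one. The log2 fold changes were -1.76 in Ov4Cis (SE 0.25, adjusted p = 0.000124) and -2.28 in Ov4Carbo7 (SE 0.25, adjusted p = 1.5e-05). Ov4Carbo, at 3.36, 3.94 and 4.21, overlapped the parental samples, with a difference of -0.27 and a 95% interval from -0.80 to 0.27. Ov4Carbo4, at 3.38, 3.58 and 3.13, lay below them, with a difference of -0.74 (adjusted p = 0.0314) that was too small for a call.

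CLDN1 (ENSG00000163347, chromosome 3), needed for the barrier of skin and an entry factor of hepatitis C virus, set a single line apart. It stood at 0.30, 0.43 and 0.31 log2 RPKM in Ov4Carbo4 and between 3.46 and 5.33 in the 12 samples of the other lines. Parental values were 5.33, 5.17 and 5.12, and the log2 fold change of Ov4Carbo4 was -4.86 (SE 0.22, adjusted p = 2.31e-08), or 29.1-fold lower. Ov4Carbo, the population the clone came from, held 4.09, 3.75 and 4.20, lower than the parental line by 1.19 (SE 0.22, adjusted p = 0.00149). Ov4Cis held 4.6, 3.46 and 4.05, with -1.17 (SE 0.22, adjusted p = 0.00114), which became -0.88 and lost its call without Ov4Cis replicate 2. In Ov4Carbo7, at 4.49, 4.66 and 4.41, the difference of -0.69 (adjusted p = 0.0242) was not called.

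CLDN22 (ENSG00000177300, chromosome 4), a claudin whose function is little known, was either above log2 RPKM 0 in all samples of a line or far below it. It stood at 0.31, 0.33 and 1.09 log2 RPKM in the parental line and at 1.33, 1.44 and 0.28 in Ov4Carbo4, which overlap. It stood at -5.21, -5.45 and -5.34 in Ov4Cis, at -6.88, -6.37 and -6.45 in Ov4Carbo, and at -4.35, -5.38 and -5.31 in Ov4Carbo7. These 9 values lie toward the lower end of the table, so the log2 fold changes against the parental line of -5.91 (adjusted p = 6.51e-08), -7.14 (4.98e-08) and -5.59 (1.93e-07) are uncertain in size. On the log2(RPKM + 1) scale they were -1.29, -1.31 and -1.28, and all 3 were called there too. In Ov4Carbo4 the difference was 0.44, with a 95% interval from -0.30 to 1.18.

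The reads of CLDN22 are open to mixing with other genes. In GENCODE v29 the whole gene lies inside WWC2, on the other strand, and whether counting used the strand is not given in the sources used here. Without strand, reads of the 2 genes cannot be told apart. WWC2, a scaffold gene of the Hippo pathway, had means of 5.94 log2 RPKM in the parental line, 5.77 in Ov4Carbo4, 5.64 in Ov4Cis, 5.02 in Ov4Carbo and 4.90 in Ov4Carbo7, and its change in Ov4Cis was -0.30 (adjusted p = 0.206). The transcripts of CLDN22 and its neighbour CLDN24 match at 592 of 635 aligned bases (93.2%), and CLDN24 is not among the rows of the table. CLDN7 is overlapped over 53.6% of its length from start to end, introns included (2187 bases), by AC003688.1. That gene is annotated as protein-coding on the same strand and is not among the rows of the table. Reads could be split between them, but overlap of exons was not measured. CLDN7 also shares 38 bases with ELP5 on the other strand, and the differences of ELP5 from the parental line were 0.46 to 0.56, too small for a call.

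CLDN12 (ENSG00000157224, chromosome 7), a claudin that lacks the usual binding motif for the plaque at its tail, was the member without a call. Its 15 values ran from 3.0 to 4.28 log2 RPKM. The parental samples held 3.46, 3.40 and 3.12 and overlapped those of Ov4Cis (4.28, 3.45, 3.68), Ov4Carbo (3.36, 3.37, 3.58) and Ov4Carbo4 (3.0, 3.34, 3.07). Those of Ov4Carbo7 (3.61, 3.69, 3.52) lay above them. The differences from the parental line ran from -0.19 in Ov4Carbo4 (95% interval -0.59 to 0.21) to 0.47 in Ov4Cis (0.07 to 0.87, adjusted p = 0.0621). GENCODE v29 places 4 genes over the long CLDN12 gene on the same strand, so its reads could also be split. They cover 84.8% (AC006153.1, a processed transcript), 36.2% (CDK14), 14.8% (AC002456.2, a pseudogene) and 6.0% (GTPBP10) of it, and only GTPBP10 is among the rows of the table. These shares are of the whole gene from start to end, introns included, and overlap of exons was not measured.

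**Figure D2:**
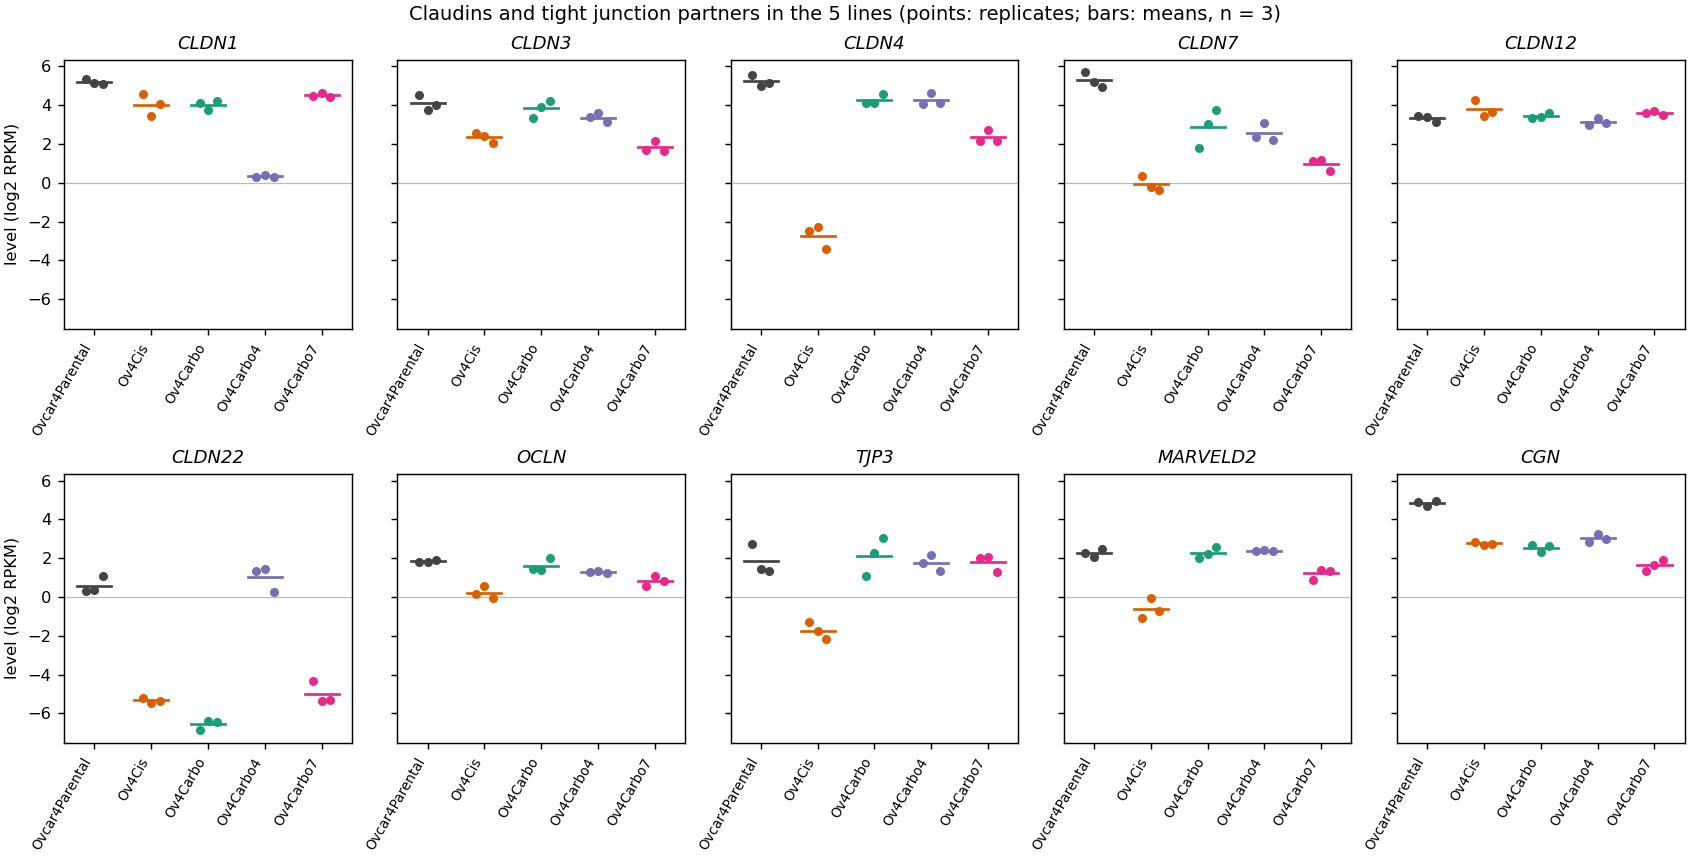
Level in log2 RPKM (vertical axis) of each of the 10 genes in the 5 lines (horizontal axis), with a point for each of the 3 replicates and a bar at their mean. CLDN4, CLDN7, TJP3 and MARVELD2 are lower in all 3 Ov4Cis samples than in any sample of the other lines. CLDN1 is lowest in Ov4Carbo4, and CLDN12 stays between 3.0 and 4.28 throughout.

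The 2 MARVEL-domain members, MARVELD2 and OCLN, were lower in Ov4Cis and, by less, in Ov4Carbo7. MARVELD2 (ENSG00000152939, chromosome 5) stood at 2.24, 2.07 and 2.47 log2 RPKM in the parental line and at -1.07, -0.07 and -0.73 in Ov4Cis, which was lower by 2.88 (SE 0.23, adjusted p = 1.11e-06). In Ov4Carbo7 it stood at 0.90, 1.41 and 1.35, with -1.04 (SE 0.23, adjusted p = 0.00324). Both lines lay below all parental samples. Ov4Carbo (2.03, 2.21, 2.58) and Ov4Carbo4 (2.36, 2.43, 2.39) overlapped the parental samples, with differences of 0.01 (95% interval -0.50 to 0.51) and 0.13 (-0.37 to 0.64).

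OCLN (ENSG00000197822, chromosome 5) had the narrower range. Its values were 1.83, 1.81 and 1.92 log2 RPKM in the parental line, 0.14, 0.57 and -0.06 in Ov4Cis, and 0.55, 1.09 and 0.84 in Ov4Carbo7. The log2 fold changes were -1.63 in Ov4Cis (SE 0.19, adjusted p = 2.98e-05) and -1.02 in Ov4Carbo7 (SE 0.19, adjusted p = 0.00102). Ov4Carbo4, at 1.29, 1.32 and 1.23, lay below the parental samples with -0.57 (adjusted p = 0.0320), too small for a call. Ov4Carbo, at 1.44, 1.38 and 2.01, overlapped them, with -0.24 (95% interval -0.66 to 0.18).

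The Ov4Carbo7 calls of OCLN and MARVELD2 sat at the edge of the rule. Without parental replicate 3 they were -0.99 and -0.93, and without Ov4Carbo7 replicate 1 they were -0.88 and -0.88, none of which is called. With the title series term they were -0.77 (adjusted p = 0.125) and -0.68 (adjusted p = 0.244).

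In the plaque, CGN was lower in all 4 derived lines and TJP3 in 1. CGN (ENSG00000143375, chromosome 1), which binds ZO proteins, actin and myosin, stood at 4.88, 4.71 and 4.95 log2 RPKM in the parental line. It stood at 2.86, 2.69 and 2.75 in Ov4Cis, at 2.66, 2.31 and 2.61 in Ov4Carbo, at 2.85, 3.26 and 2.96 in Ov4Carbo4 and at 1.35, 1.67 and 1.92 in Ov4Carbo7. No derived sample reached the lowest parental one. The log2 fold changes were -2.08, -2.32, -1.82 and -3.20 in that order (SE 0.16 each), and the highest of their adjusted p-values was 2.62e-06, in Ov4Carbo4.

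TJP3 (ENSG00000105289, chromosome 19), a ZO scaffold found mainly in epithelia, was called lower in Ov4Cis. It stood at 2.74, 1.46 and 1.32 log2 RPKM in the parental line and at -1.32, -1.74 and -2.18 in Ov4Cis, 12.0-fold lower, with a log2 change of -3.58 (SE 0.48, adjusted p = 8.82e-05). Values in Ov4Carbo were 1.10, 2.26 and 3.05, in Ov4Carbo4 1.73, 2.18 and 1.36, and in Ov4Carbo7 2.00, 2.07 and 1.29. All 3 lines overlapped the parental line, with differences of 0.29 (95% interval -0.75 to 1.34), -0.08 (-1.13 to 0.97) and -0.05 (-1.10 to 1.00). The spread of the TJP3 replicates leaves these intervals wide. Ov4Cis was lower than Ov4Carbo4 by 3.5 (adjusted p = 9.68e-05) and than Ov4Carbo7 by 3.53 (adjusted p = 0.000115).

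TJP1, which encodes the ZO scaffold ZO-1, was chosen for mention after its values were seen. In Ov4Cis TJP1 differed from the parental line by -0.53 (adjusted p = 0.000848), and it was not called in any derived line.

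The order of the 5 lines differed from gene to gene. Ovcar4Parental had the highest mean for CLDN1, CLDN3, CLDN4, CLDN7, OCLN and CGN. Ov4Cis had the lowest mean for CLDN4, CLDN7, OCLN, TJP3 and MARVELD2, Ov4Carbo7 for CLDN3 and CGN, Ov4Carbo4 for CLDN1 and CLDN12, and Ov4Carbo for CLDN22. Of 40 neighbouring pairs in these orders 16 differed at an adjusted p under 0.05. Over all 10 pairs of lines, neighbouring or not, 40% of the tests of all genes passed that threshold. These shares cannot be compared, because neighbours in a gene's order are the lines with the closest means.

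Some steps of those orders were plain and others were not. For CLDN4 the steps from Ovcar4Parental to Ov4Carbo, from Ov4Carbo4 to Ov4Carbo7 (1.92, adjusted p = 0.000128) and from Ov4Carbo7 to Ov4Cis (5.07, adjusted p = 9.95e-08) differed, and Ov4Carbo and Ov4Carbo4 did not differ beyond their spread. For CLDN7 the last step, from Ov4Carbo7 to Ov4Cis, missed the threshold (1.06, adjusted p = 0.0628). For CGN the line between the parental level and the rest was 1.82 wide, Ov4Carbo4, Ov4Cis and Ov4Carbo followed with no step past the threshold, and Ov4Carbo7 came last, 0.88 below Ov4Carbo (adjusted p = 0.000942). For CLDN3 the step that differed was from Ov4Carbo4 to Ov4Cis (1.02, adjusted p = 0.00519). For OCLN it was from Ov4Carbo7 to Ov4Cis (0.61, adjusted p = 0.0240).

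The 2 clones were then compared with the population they came from. Against Ov4Carbo, Ov4Carbo4 had 1 gene called higher (CLDN22) and 1 lower (CLDN1), against 7.58% and 6.64% of all genes, so the counts were close to the background. The changes themselves were large: CLDN22 was higher by 7.58 (adjusted p = 2.94e-08), which is 1.60 after damping by log2(RPKM + 1), and CLDN1 lower by 3.67 (SE 0.22, adjusted p = 3.00e-07). Ov4Carbo7 had 4 genes called lower than in Ov4Carbo (CLDN3, CLDN4, CLDN7 and MARVELD2), against 5.62% of all genes, and 1 higher, against 7.72%. The 4 log2 fold changes were -2.01, -1.93, -1.89 and -1.05. The higher one, CLDN22, was far below log2 RPKM 0 in both lines, and its 1.56 became 0.03 on the log2(RPKM + 1) scale and lost its call. With the title series term the changes of CLDN7 (-0.82, adjusted p = 0.212) and MARVELD2 (-0.81, adjusted p = 0.111) were not called, and MARVELD2 was not called either without Ov4Carbo replicate 3 (-0.90) or Ov4Carbo7 replicate 1 (-0.89).

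The clones differed from each other in 7 of the 10 genes. In Ov4Carbo7 CLDN1 was higher than in Ov4Carbo4, against 11.1% of all genes called higher, and 6 genes were lower, against 9.86%. CLDN1 was higher by 4.17 (SE 0.22, adjusted p = 4.89e-08), or 18.0-fold. CLDN22 was lower by 6.03 (SE 0.34, adjusted p = 8.29e-08), CLDN4 by 1.92, CLDN7 by 1.57, CLDN3 by 1.54, CGN by 1.38 and MARVELD2 by 1.17, and the highest adjusted p among the 6 was 0.00751, for CLDN7. CLDN12, OCLN and TJP3 were not called, with differences of 0.47 (95% interval 0.07 to 0.87), -0.45 (-0.87 to -0.03) and 0.03 (-1.02 to 1.08).

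The cisplatin-selected and carboplatin-selected populations were compared directly. In Ov4Cis 6 genes were lower than in Ov4Carbo, against 5.9% of all genes, and 1 was higher, against 7.88%. CLDN4 was lower by 7.0 (SE 0.28, adjusted p = 4.78e-09), TJP3 by 3.88 (SE 0.48, adjusted p = 6.64e-05), CLDN7 by 2.95, MARVELD2 by 2.89, CLDN3 by 1.5 and OCLN by 1.39. CLDN1 and CGN, called lower than parental in both populations, differed between them by 0.02 (95% interval -0.46 to 0.50) and 0.24 (-0.10 to 0.57). The gene called higher was CLDN22, far below log2 RPKM 0 in both lines, and its 1.23 became 0.02 on the log2(RPKM + 1) scale.

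Members resembled each other unevenly over the 15 samples, which fall into 5 lines and so do not give 15 independent points. The Pearson correlation of the 45 pairs ran from -0.745 (CLDN12 and MARVELD2) to 0.968 (CLDN4 and MARVELD2), with a median of 0.479. Among CLDN4, OCLN, MARVELD2 and TJP3 the 6 pairs ran from 0.778 (OCLN and TJP3) to that highest value. CLDN7 went with OCLN at 0.897, with CLDN3 at 0.871 and with CLDN4 at 0.836. CLDN1 had its highest value with CLDN12 (0.513), and from -0.423 to 0.155 with the rest.

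Among all genes of at least log2 RPKM 1 in their highest line, the 3 most like CLDN4 were CDS1 (r = 0.988), CDH1 (0.986), which encodes E-cadherin, and SPINT2 (0.986). Those most like CLDN7 were S100A14 (0.996), PRSS22 (0.977) and CDH3 (0.976), which encodes P-cadherin. Among those most like CGN were NPR1 (0.978) and BAG5. OCLN went with MYO5C (0.946), GARIN5A and ESRP1, an epithelial splicing factor, and MARVELD2 with LATS2 (0.978), GARRE1 and ARHGEF16. CLDN1 went with SLPI (0.979), CXCL8 and HBS1L, CLDN3 with SELENOM (0.968), BEX4 and IGFBP2, and CLDN22 with FAM171A1 (0.964), NEURL1B and HSPA2. TJP3 went with TBC1D22B (0.974), MRPS10 and KLC4, and CLDN12 with TNS2 (0.910), ABHD14B and EML3. Each r is over the same 15 samples and is a description.

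Members that lie next to each other in the genome did not always move alike. CLDN3 and CLDN4 are adjacent measured genes 29.3 kb apart in GENCODE v29, and in Ov4Cis they changed by -1.76 and -7.97. MARVELD2 and OCLN, 48.0 kb apart, changed by -2.88 and -1.63. CLDN1 has CLDN16 as its nearest measured neighbour, with 0.1 kb between the annotated genes. CLDN16, a claudin that lets magnesium pass in the kidney, stood at 3.26, 3.26 and 3.22 log2 RPKM in the parental line and at -0.83, -0.98 and -0.87 in Ov4Carbo4, a change of -4.14 (SE 0.20, adjusted p = 3.48e-08) beside the -4.86 of CLDN1. In Ov4Cis CLDN16 was higher than in the parental line by 1.2 (adjusted p = 0.000484) and in Ov4Carbo7 by 1.09 (adjusted p = 0.000886), lines in which CLDN1 changed by -1.17 and -0.69.

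**Figure D3:**
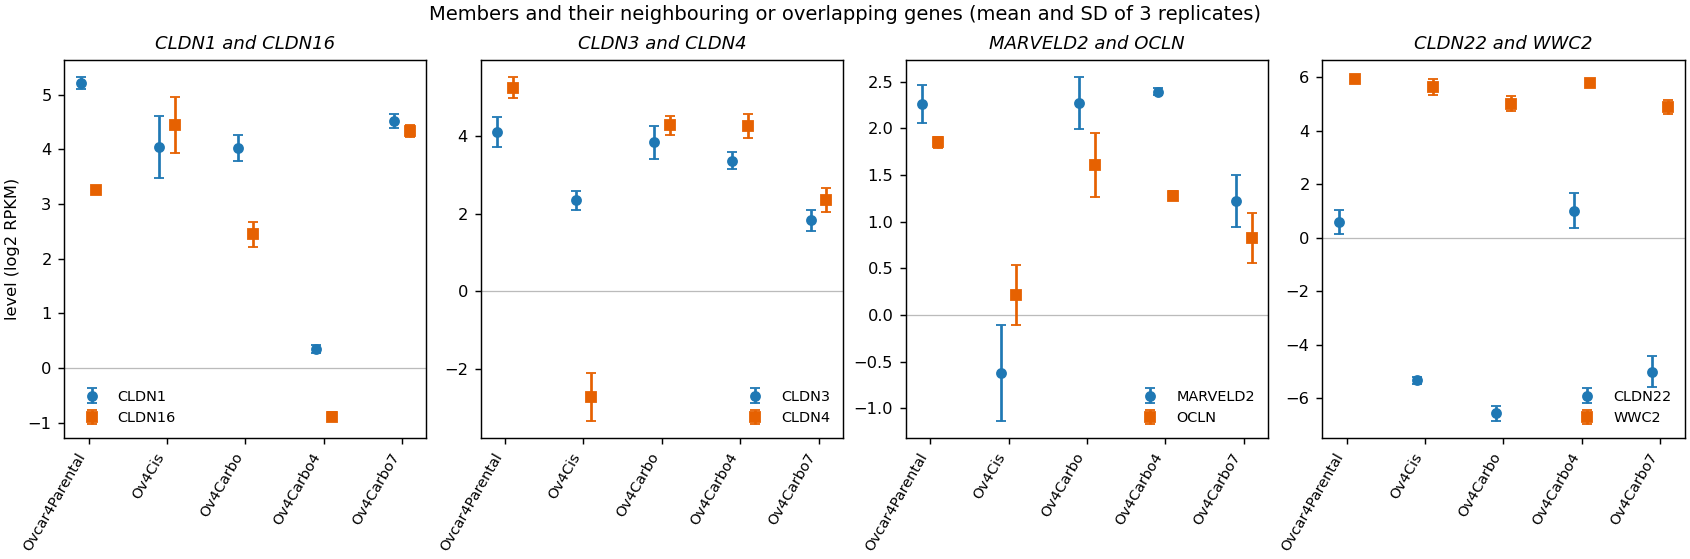
Mean level in log2 RPKM (vertical axis, bars are the SD of 3 replicates) in each line (horizontal axis) for 3 pairs of neighbouring genes and for CLDN22 with WWC2, which overlaps it. CLDN1 and CLDN16 are both lowest in Ov4Carbo4 and differ in direction from the parental line in Ov4Cis, and WWC2 stays between 4.90 and 5.94 while CLDN22 is far below 0 in 3 lines.

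Other genes of the junction were read from lists, with the shares of all genes called given above as the background. Of 18 other claudins 6 were in the table. In Ov4Cis 4 of the 6 were higher (CLDN2, CLDN11, CLDN15 and CLDN16) and 1 lower (CLDN9), with a median log2 fold change of 1.35. The 10 genes described above had 0 higher there. Both lists were chosen with earlier results of these data known, so this split of the claudins is not a result. CLDN2 went from -6.68 to -0.89 log2 RPKM, a rise of 0.61 on the log2(RPKM + 1) scale. CLDN11, the claudin of myelin and Sertoli cells, rose from 1.76 to 5.44 log2 RPKM, a change of 3.68 (SE 0.27, adjusted p = 4.88e-07). CLDN15, which passes cations, rose by 1.5 (SE 0.18, adjusted p = 3.63e-05). In Ov4Carbo7 2 were higher (CLDN2 and CLDN16) and 2 lower (CLDN9 and CLDN10), in Ov4Carbo4 0 and 3 (CLDN9, CLDN10 and CLDN16), and in Ov4Carbo 0 and 2 (CLDN9 and CLDN10). CLDN10 fell from 1.09 to -6.49 in Ov4Carbo7, a change of -7.58, or -1.63 on the log2(RPKM + 1) scale. CLDN2 and CLDN9 had no line mean of 1 or more and are named here after their values were seen.

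Of 12 other membrane proteins of the junction 8 were in the table. Of these 4 were lower in Ov4Carbo7, 3 in Ov4Cis, 2 in Ov4Carbo and 1 in Ov4Carbo4, where 1 was also higher. CRB3, which marks the apical membrane, fell by 5.22 in Ov4Cis (SE 0.19, adjusted p = 1.07e-09), and MARVELD3, the third MARVEL protein of the junction, by 4.27 (SE 0.41, adjusted p = 4.78e-06). BVES was higher by 1.26 in Ov4Carbo4 (adjusted p = 0.0100).

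The called counts of the plaque and polarity lists were near the background for Ov4Cis, where 15.9% of all genes were called. They were under it for the other derived lines, where that share ran from 12.7% to 17%. The lists are short, and no difference from the background was tested. Of 19 other plaque and scaffold genes 18 were in the table. Of these 1 was lower and 2 higher in Ov4Cis, 0 and 0 in Ov4Carbo, 0 and 1 in Ov4Carbo4 and 0 and 1 in Ov4Carbo7. An unadjusted p under 0.05 was found for 13 of the 18 in Ov4Cis (45.1% of all genes), 9 in Ov4Carbo7 (50.4%), 8 in Ov4Carbo4 (47.6%) and 4 in Ov4Carbo (44.3%). CGNL1, the paralog of CGN, rose by 2.26 in Ov4Carbo4 (SE 0.15, adjusted p = 3.64e-07), where CGN had -1.82. AMOT rose by 4.70 in Ov4Cis and PATJ fell by 1.63. Of 18 polarity genes 17 were in the table. Of these 2 were lower in Ov4Cis, and 1 in each of Ov4Carbo, Ov4Carbo4 and Ov4Carbo7, with 1 higher in Ov4Carbo7. LLGL2 fell by 1.85 and PARD3B by 1.47 in Ov4Cis, and STK11 rose by 1.03 in Ov4Carbo7.

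**Figure D4:**
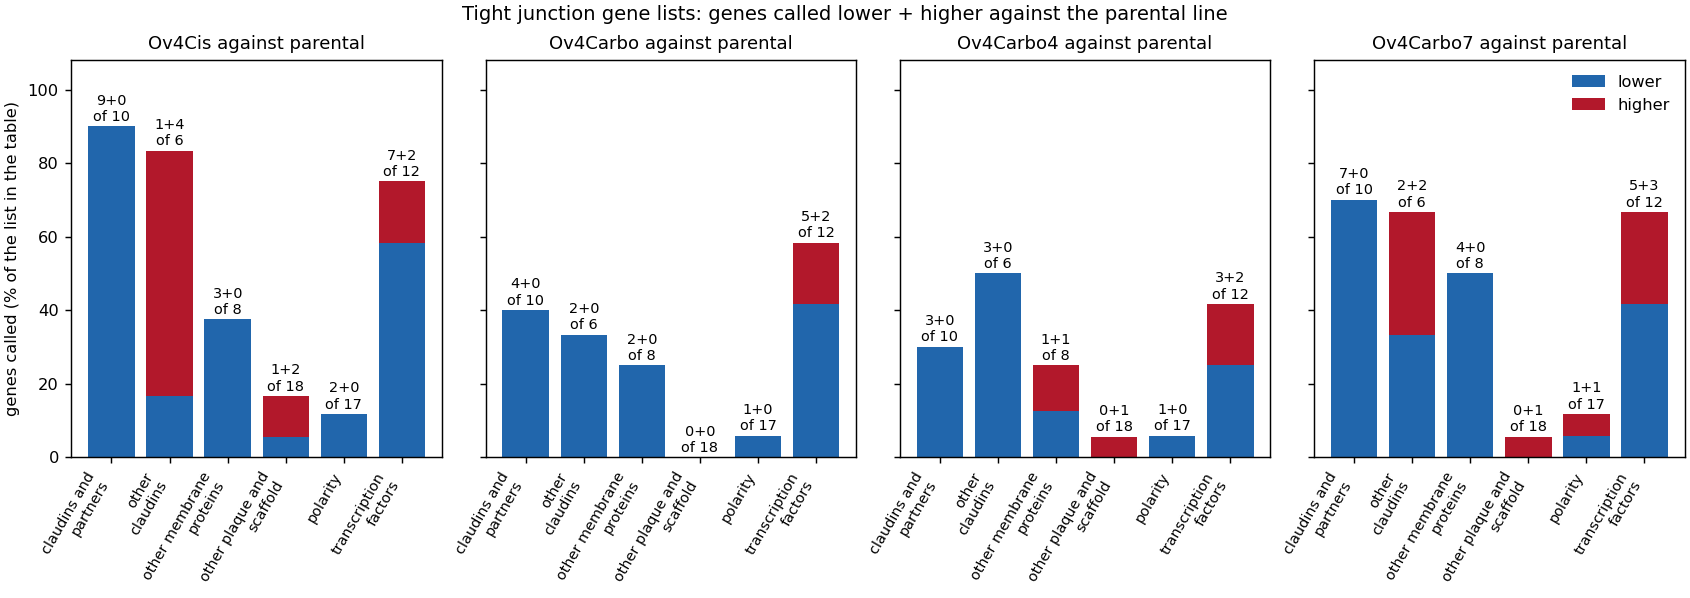
Share of the genes of each list called lower (blue) or higher (red) than in the parental line (vertical axis, percent of the genes in the table), with the counts above each bar and a panel for each derived line. The 10 claudins and partners have 9, 4, 3 and 7 genes lower and 0 higher, and the other claudins have 4 of 6 higher in Ov4Cis. The lists were chosen with earlier results of these data known.

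Of 17 transcription factors known to act on junction genes 12 were in the table. Of these 7 were lower and 2 higher in Ov4Cis, 5 and 2 in Ov4Carbo, 3 and 2 in Ov4Carbo4 and 5 and 3 in Ov4Carbo7. GRHL2, a grainyhead-like activator of epithelial junction genes, stood at 3.41, 3.42 and 3.45 log2 RPKM in the parental line. It stood at -6.37, -6.52 and -5.38 in Ov4Cis, at -4.95, -1.68 and -1.28 in Ov4Carbo, at -0.37, -0.51 and -0.53 in Ov4Carbo4 and at -6.37, -6.05 and -7.13 in Ov4Carbo7. All 4 lines lay below the parental samples, with log2 fold changes of -9.52, -6.07, -3.90 and -9.95 (SE 0.72 each, highest adjusted p = 0.00101), or -3.53, -3.25, -2.77 and -3.54 after damping by log2(RPKM + 1). Ov4Cis and Ov4Carbo7 did not differ past the threshold in GRHL2 (0.43, adjusted p = 0.679). OVOL1 fell by 7.17 in Ov4Cis, or by 1.85 on the log2(RPKM + 1) scale. ZEB1, a repressor that binds CACCTG, rose from 2.07 to 3.75 in Ov4Cis (1.68, SE 0.17, adjusted p = 7.56e-06). It was also called higher in Ov4Carbo7 (1.35, adjusted p = 4.65e-05) and not in Ov4Carbo (0.28) or Ov4Carbo4 (0.46). SNAI1, a Snail repressor named here after its values were seen, had 0.05 in Ov4Cis (adjusted p = 0.860) and was not called in any derived line. Whether any of these factors acts on the members was not tested.

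Marker genes of this cancer's own cell type and of other cell types were read as whole lists. All 12 mullerian and epithelial markers were in the table, and their summed level was 945 to 1125 RPKM in the parental samples, 525 to 578 in Ov4Carbo, 548 to 613 in Ov4Carbo4, 434 to 448 in Ov4Carbo7 and 336 to 437 in Ov4Cis. In Ov4Cis 9 were lower and 1 higher, and 7 had a mean under log2 RPKM 0. In the other derived lines the counts of lower and higher were 2 and 1 in Ov4Carbo, 6 and 1 in Ov4Carbo4 and 7 and 0 in Ov4Carbo7. KRT7 fell by 8.85 in Ov4Cis and KRT19 fell by 8.65. PAX8, a defining marker of this cancer type, stood between 5.66 and 6.87 in all 15 samples, while WT1, another, was under 0 in all of them.

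Of 12 fibroblast and mesenchymal markers 9 were in the table, with a summed level of 226 to 326 RPKM in the parental samples and 561 to 694 in Ov4Cis. VIM, named here after its values were seen, had the highest mean of the list in both lines (8.02 and 8.76 log2 RPKM). Its difference was 0.74 in Ov4Cis, and it was not called in any derived line. The sums were 245 to 392 in Ov4Carbo, 412 to 494 in Ov4Carbo4 and 348 to 381 in Ov4Carbo7. The list went both ways in each line, with 3 higher and 1 lower in Ov4Cis, 4 and 2 in Ov4Carbo7, 3 and 4 in Ov4Carbo4 and 2 and 3 in Ov4Carbo. In that order of lines SPARC was called higher by 5.73, 3.74, 5.61 and 4.49, and COL1A2 had -4.24, -4.95, -5.80 and -5.18, called lower in all 4. CDH2, which encodes N-cadherin, was called higher in Ov4Cis (2.86), Ov4Carbo4 (1.02) and Ov4Carbo7 (1.46), and FN1 lower in Ov4Carbo (-3.03) and Ov4Carbo4 (-6.92). Of 9 blood and endothelial markers 4 were in the table and PTPRC, CD3E, LYZ, PECAM1 and HBB were not, and the sum was at most 41.7 RPKM in any sample. CDH5, which made up most of it, was higher by 2.67 in Ov4Cis. Of the 4, 1 was higher in Ov4Cis, Ov4Carbo4 and Ov4Carbo7 each, 0 in Ov4Carbo, and 1 was lower in Ov4Carbo7. The part of these markers in the changes of the members was not tested.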

How the data were processed

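PolyA-selected RNA of 15 samples (5 lines, 3 replicates each) was sequenced. The authors deposited 1 table of log2 RPKM values after conditional quantile normalization (cqn), as the table is named, with a threshold whose rule is not given in the sources used here. The submitters' processing notes name BWA 0.7.15-r1140, HTSeq and the build GRCh37 (hg19). The table holds 16604 genes and 0 missing values, and 0 pairs of samples were identical. Base 2 was checked on the values. Quantile normalization makes the upper part of the distribution alike in all samples (largest SD of ranked values 0.000518), so a change in total RNA is not measurable, and the depth is unknown.

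The functions lmFit and eBayes of limma 3.58.1 (R 4.3.3, two-sided tests) fitted a coefficient for each line to all genes and samples, with Benjamini-Hochberg adjustment over all genes in each of 10 contrasts, and tested on simulated data. Symbols matched 16448 genes. Neighbours, overlaps and strands came from GENCODE v29 and promoters from RefSeq, both on GRCh38 and not the authors' build, so the promoter coordinates are the reference's own. Figures used matplotlib 3.10.9.

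All 10 members were named. From each other list (other claudins, other membrane proteins, plaque and scaffold, polarity, transcription factors, overlapping genes, and 3 marker lists) at most the 2 largest rises and 2 largest falls against the parental line were named, among called genes with a line mean of at least 1. The 3 genes most correlated with each member were named too, except 1 for CGN that is not reported here. The members and lists were chosen with earlier results of these data known. The alternatives were log2(RPKM + 1), log2(RPKM + 0.1), genes of mean 1 or more, median centring, quantile normalization, a variance trend, a replicate block, a title series term, only the lines compared, the adjusted p alone, and leaving out each replicate.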

Additional observations from a re-analysis of the deposited data

Results flagged for a closer look

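The lines grown from single cells, Ov4Carbo4 and Ov4Carbo7, can be set against the same population, Ov4Carbo, and 7 of the 10 genes changed from it by different amounts in the 2 clones. The test of the difference is the limma contrast of the clones, in which 20.9% of all genes were called. The difference is given as the change in Ov4Carbo7 minus that in Ov4Carbo4 on the log2 scale. It was 4.17 for CLDN1, which was lower than Ov4Carbo by 3.67 in Ov4Carbo4 and stood 0.50 above it in Ov4Carbo7. It was -6.03 for CLDN22, which is far below log2 RPKM 0 in Ov4Carbo and Ov4Carbo7. It was -1.92 for CLDN4, -1.57 for CLDN7 and -1.54 for CLDN3, all called lower than Ov4Carbo in Ov4Carbo7 and not called in Ov4Carbo4. It was -1.38 for CGN and -1.17 for MARVELD2. Groups of 3 are too small to look for single samples that stand apart.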

How the results depend on the processing

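Over 10 other settings and 15 fits that each left out a sample, the 8 counts of called members stayed within 1.5 times their value, with 3 exceptions. Ov4Carbo7 against Ov4Carbo had 3 called members on the log2(RPKM + 1) scale instead of 5 (4.96% of all genes instead of 13.3%). Ov4Carbo4 against Ov4Carbo had 1 instead of 2 (8.27% instead of 14.2%) after genes of mean under log2 RPKM 1, CLDN22 among them, were dropped. Ov4Carbo4 against the parental line had 6 instead of 3 at the adjusted p alone, which 40% of tests passed over all 10 contrasts. Within the limit, Ov4Carbo7 against the parental line had 5 instead of 7 on the log2(RPKM + 1) scale (7.79% instead of 17%). With the title series term it had 5 too (16.6%), and Ov4Carbo4 against the parental line 2 instead of 3 (17.9% instead of 15.1%).

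Directions turned only among uncalled differences. With the title series term Ov4Carbo4 minus Ov4Carbo became 9e-04 for CLDN3, 0.13 for CLDN4, 0.75 for CLDN7 and 0.66 for TJP3, TJP3 in Ov4Carbo7 minus Ov4Carbo became 0.69, and TJP3 minus the parental line became 1.47 in Ov4Carbo4 and 1.5 in Ov4Carbo7. Leaving out single samples, TJP3 ran from -0.16 to 0.81 for Ov4Carbo, -0.34 to 0.37 for Ov4Carbo4 and -0.31 to 0.40 for Ov4Carbo7 against the parental line, from -0.89 to 0.079 and -0.87 to 0.11 for Ov4Carbo4 and Ov4Carbo7 against Ov4Carbo, and from -0.17 to 0.28 between the clones. MARVELD2 ran from -0.14 to 0.13 for Ov4Carbo against the parental line, CLDN1 from -0.26 to 0.31 for Ov4Cis against Ov4Carbo, and CLDN4 from -0.19 to 0.13 and CLDN7 from -0.85 to 0.13 for Ov4Carbo4 against Ov4Carbo. The cause was not tested.

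With the replicate block the counts against the parental line were 9, 4, 3 and 7 for Ov4Cis, Ov4Carbo, Ov4Carbo4 and Ov4Carbo7, as without it. Same-numbered samples of different lines did not deviate together as a whole (30 pairs, r from -0.394 to 0.437, median -0.022), and the other 60 pairs had a median of 0.019. No pairing by number was seen, but 3 replicates per line cannot establish that there is none. Low levels limit CLDN22, whose call against Ov4Carbo in Ov4Cis and Ov4Carbo7 was lost with log2(RPKM + 0.1), log2(RPKM + 1) and quantile normalization.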

Other observations

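Measured genes on either side of the members were listed by position in GENCODE v29, up to the third on each side and not all named here, after the values of the members were seen. Beside CLDN3 and CLDN4 on chromosome 7, ABHD11 was called lower than in the parental line in Ov4Carbo4 (-1.75, limma adjusted p = 3.85e-06) and Ov4Carbo7 (-1.37, adjusted p = 2.26e-05), and EIF4H, on the other side, in Ov4Carbo4 (-1.13, adjusted p = 1.08e-05) and Ov4Carbo7 (-1.01, adjusted p = 2.18e-05). METTL27, 1.9 kb from CLDN4, was called higher in Ov4Cis (1.59, adjusted p = 0.0069), where CLDN4 had -7.97, and had -0.13 and 0.20 in Ov4Carbo4 and Ov4Carbo7. Its mean was under log2 RPKM 0 in every line (-2.66 in the parental line and -1.07 in Ov4Cis), so the size of its rise is uncertain. LIMK1, between EIF4H and the claudins, had -0.90 and -0.95 in those clones and -0.05 in Ov4Cis. ABHD11 had -0.97 in Ov4Cis (limma adjusted p = 0.000372), too small for a call. The means in Ov4Carbo, the source of the clones, were 3.31 for LIMK1 (parental 4.08), 5.35 for EIF4H (6.23) and 4.46 for ABHD11 (4.90). Beside CLDN1 on chromosome 3, P3H2, a collagen-modifying enzyme gene, was called lower in Ov4Cis (-1.58), Ov4Carbo4 (-1.88) and Ov4Carbo7 (-1.47), and IL1RAP in Ov4Carbo4 (-1.17, adjusted p = 0.00206). P3H2 and IL1RAP had means of 4.09 and 0.90 in Ov4Carbo and of 5.15 and 1.98 in the parental line. Beside MARVELD2, RAD17, a DNA damage checkpoint gene 0.3 kb away, had differences of 0.06 in Ov4Cis and 0.19 in Ov4Carbo7 and was not called in either. GTF2H2C, 2.1 kb from OCLN, was called higher in Ov4Cis (1.31, adjusted p = 0.00109) and Ov4Carbo4 (1.25, adjusted p = 0.00152). Its mean too was under log2 RPKM 0 in every line (-2.10 in the parental line, -0.79 in Ov4Cis and -1.11 in Ov4Carbo). TJP3 has APBA3 directly beside it, with a difference of -0.06 in Ov4Cis (adjusted p = 0.657), and PIP5K1C at 7.6 kb, with 0.23 (adjusted p = 0.226), where TJP3 had -3.58.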
